A study of Homo sapiens with 4 samples.

Results

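The NRF2-driven reductases and thiol enzymes described here are 10 genes, chosen by gene symbol from the 57905 Ensembl genes of each expression table: the aldo-keto reductases AKR1B1, AKR1B10, AKR1C1, AKR1C2 and AKR1C3, the quinone reductase NQO1, and the glutathione and thioredoxin enzymes GPX2, TXNRD1, GCLM and GCLC. All 10 symbols were present and all 10 passed the filter on low values. The samples were A549 cells, an established human lung adenocarcinoma line known to carry an inactivating KEAP1 mutation, grown in DMEM with fetal bovine serum. A control group of 2 RNA libraries was set beside 2 libraries of cells exposed for 24 h to GMI at 0.6 µM. GMI is a small protein made by the mushroom Ganoderma microsporum that acts on immune cells. The labelled treatment of each sample gives its group, while the text of the treatment protocol is the same for all 4, and the labels name neither separate cultures nor a vehicle for the controls, so the spread between the 2 libraries of a group may be technical, and 1 cell line at 1 dose and 1 time was measured.

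NRF2, encoded by NFE2L2, is a transcription factor that KEAP1 normally marks for degradation. When KEAP1 is inactive, NRF2 accumulates, pairs with small MAF proteins and binds antioxidant response elements near genes of detoxification, glutathione synthesis and NADPH formation. Aldo-keto reductases use NADPH to reduce aldehydes, ketones and steroids, and high RNA levels of this family are a known feature of lung cancer cells with active NRF2.

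The expression values are FPKM, in which the authors divided fragment numbers by gene length and sequencing depth. The whole multiples seen in FPKM values of short genes gave library denominators of 20560000 to 24090000 fragments, and 11301 to 11472 genes reached 1 FPKM in a library. The correlation of log2(FPKM + 1) across tested genes, which are not independent replicates, was 0.995 within the control pair, 0.992 within the GMI pair and 0.982 to 0.985 between groups. The keratins KRT8, KRT18 and KRT7 were between 502 and 1981 FPKM, with KRT7 (log2 fold change -1.17) and KRT18 (-0.26) lower after GMI. CDKN2A, which is deleted in A549, was listed at 0 in all 4 libraries, and EPCAM and KRT19 stayed below 1 FPKM. None of 8 alveolar type II, 7 fibroblast and 3 endothelial markers passed the filter. Of 5 leukocyte markers, PTPRC and CD3E were listed at 0, and the summed level of the list was 3.14 and 3.16 FPKM in the controls and 6.34 and 4.55 FPKM with GMI, mostly from CD14 (log2 fold change 0.74, limma adjusted p = 0.00920). The part of these marker changes in the results below was not tested. In bulk RNA, fewer cells expressing a gene and less RNA per cell cannot be told apart.

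After GMI, AKR1C1 and AKR1C2 rose, GPX2 fell, and 7 of the 10 genes did not pass the test. AKR1C1 was 48.3% higher and AKR1C2 20.7% higher in mean FPKM, while the mean of GPX2 fell by 41.5%. Calls are those of limma with p-values adjusted over all 11598 tested genes at a threshold of 0.05, by which 15.4% of all tested genes were called, 9.30% as higher and 6.12% as lower with GMI. With 3 of 10 genes called, 2 upward and 1 downward, the group was split in direction. Its median log2 fold change was -0.01, beside -0.01 over all tested genes. Both GMI libraries lay above both controls in 4 of the 10 genes and below both in 3, against 29.8% and 30.4% of all tested genes. The 3 calls were lost in fits with 1 control. Without control replicate 1 limma called 0 of the 10 genes and 0.638% of all tested genes, with 3 of the 10 and 20.3% of all at an unadjusted p under 0.05. When control replicate 2 was left out it called 0 of the 10 and 0.388% of all, with 4 of the 10 and 18.7% of all at an unadjusted p under 0.05. It called 3 of the 10 and 11.8% of all when GMI replicate 1 was left out, and 2 of the 10 and 8.15% of all when GMI replicate 2 was. In such fits the lone library is assumed to vary like the other group.

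**Figure D1:**
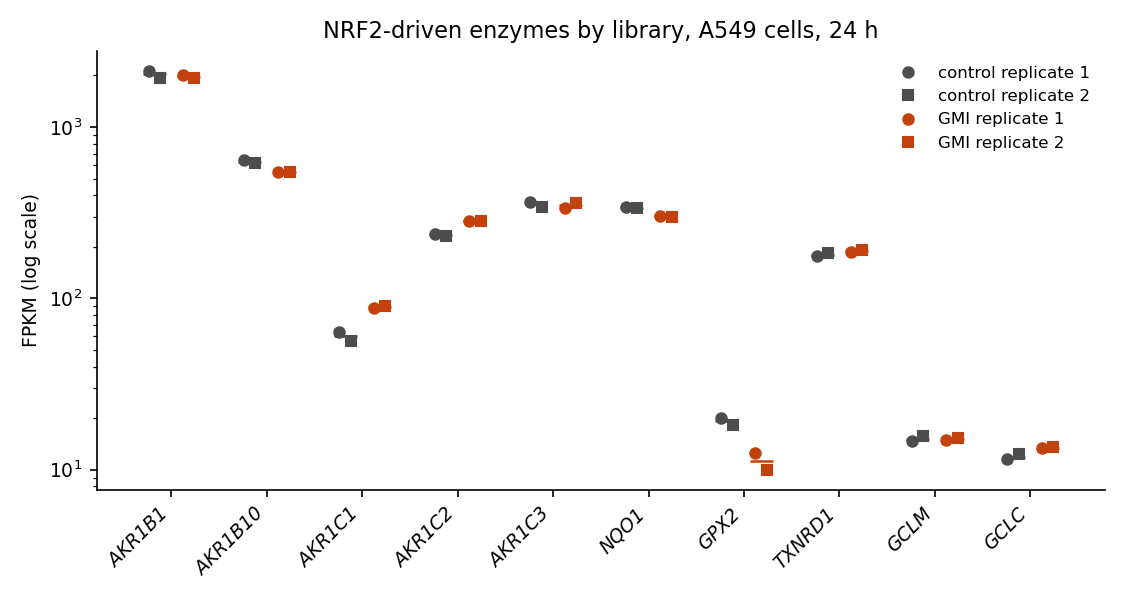
FPKM of the 10 genes on a log axis, 1 symbol per library with a short line at each group mean (n = 2). Levels run from 2029.6 FPKM for AKR1B1 to 11.9 FPKM for GCLC in the controls, and only GPX2, AKR1C1 and AKR1C2 have groups separated beyond the test's threshold.

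In untreated cells the reductases were among the most abundant RNAs of the line. The 10 genes were chosen as NRF2 target enzymes highly expressed in this line, so their high ranks follow in part from that choice. Of 11 other listed aldo-keto reductase genes, 6 stayed below 1 FPKM in all 4 libraries. AKR1B1, aldose reductase, which reduces glucose to sorbitol, ranked 18 of all genes by mean control FPKM, AKR1B10, a reductase of retinal and lipid aldehydes, ranked 64, AKR1C3 111, NQO1 122, AKR1C2 174 and TXNRD1 229. In all, 6 of the 10 genes were at 100 FPKM or more. AKR1C1 ranked 708, and the lower group was formed by GPX2 at 2212, GCLM at 2746 and GCLC at 3348, still above 71.1% of tested genes. Neighbours in this order that did not differ beyond the spread of the controls were AKR1C3 and NQO1. The order between genes rests on the gene lengths behind the FPKM, and the sources used here do not state them. For AKR1C1 the joined exons of all transcripts in GENCODE 29 measure 8765 bases while its coding sequence has 972, so its FPKM relative to other genes could differ with another length.

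AKR1C1 had the largest rise of the 10 genes. This enzyme (ENSG00000187134), which inactivates progesterone and reduces lipid peroxidation aldehydes, stood at 64.0 and 56.3 FPKM in the controls and at 87.8 and 90.6 FPKM with GMI. The GMI libraries lay close together and well above both controls. The means were 60.1 ± 5.46 and 89.2 ± 1.97 FPKM (SD, n = 2 per group here and throughout), and the log2 fold change was 0.56 (SE 0.0744, 95% interval 0.39 to 0.74, limma adjusted p = 0.00539). A log2 fold change here is the GMI mean minus the control mean of log2(FPKM + 1), which understates changes of low genes, and the intervals are not adjusted for the number of genes. AKR1C1 was not called on leaving out control replicate 1 (adjusted p = 0.0532), leaving out control replicate 2 (0.0889) or using no filter on low values (0.0929), with log2 fold changes of 0.66, 0.47 and 0.56.

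AKR1C2 (ENSG00000151632), which inactivates dihydrotestosterone, rose less. Its levels were 238 and 231 FPKM in the controls and 283 FPKM in each GMI library. The groups did not overlap, and the gap between them was larger than the difference between the controls. Means were 234 ± 5.19 FPKM in the controls and 283 ± 0.424 FPKM with GMI, for a log2 fold change of 0.27 (SE 0.0545, 95% interval 0.14 to 0.40, limma adjusted p = 0.0215). This call was lost without either control (adjusted p = 0.144 and 0.200), without GMI replicate 2 (0.0591), without a mean-variance trend (0.0610) and with no filter (0.111).

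AKR1C3 (ENSG00000196139), which forms testosterone and other active steroids and prostaglandin F, did not pass the test. It measured 367 and 342 FPKM in the controls and 336 and 363 FPKM with GMI, so that the groups overlapped. The log2 fold change was -0.02 (95% interval -0.18 to 0.14, limma adjusted p = 0.862), and this interval lies below the one of AKR1C1, which starts at 0.39. The difference between the changes of AKR1C1 and AKR1C3 itself was not tested.

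The upstream sequences of these 3 neighbouring genes on chromosome 10 are shown as a description, and their part in the changes was not tested. Each is the stretch of 250 bases before the annotated start from RefSeq on GRCh38.p14, which is not the build of the expression files, and it is printed 5′ to 3′ along the gene's strand. Capitals mark TGANNNNGC on either strand, the loose form of the antioxidant response element. The coordinates are chr10:4963165-4963414 on the plus strand for AKR1C1, chr10:5003858-5004107 on the minus strand for AKR1C2 and chr10:5094164-5094413 on the plus strand for the second of 2 annotated starts of AKR1C3.
AKR1C1: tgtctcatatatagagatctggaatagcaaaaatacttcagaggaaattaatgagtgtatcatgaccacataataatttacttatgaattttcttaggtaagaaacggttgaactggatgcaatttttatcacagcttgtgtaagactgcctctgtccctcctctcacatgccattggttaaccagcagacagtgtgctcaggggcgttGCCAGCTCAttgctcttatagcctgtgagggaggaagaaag
AKR1C2: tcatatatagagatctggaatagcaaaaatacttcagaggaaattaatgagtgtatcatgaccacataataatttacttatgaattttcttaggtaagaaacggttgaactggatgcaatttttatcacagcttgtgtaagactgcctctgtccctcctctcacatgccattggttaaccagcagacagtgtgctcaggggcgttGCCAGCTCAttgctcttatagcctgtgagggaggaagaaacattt
AKR1C3: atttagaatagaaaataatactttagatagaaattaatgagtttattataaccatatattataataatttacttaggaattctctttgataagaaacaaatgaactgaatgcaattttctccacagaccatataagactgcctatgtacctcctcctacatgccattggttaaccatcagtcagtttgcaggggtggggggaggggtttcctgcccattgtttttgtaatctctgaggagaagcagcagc

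The AKR1C1 and AKR1C2 windows matched at 99.6% of 246 aligned bases, with 1 difference. AKR1C3 matched AKR1C1 at 78.6% and AKR1C2 at 79.1% of 234 aligned bases, and its other annotated start gave 76.8% and 77.2%. The windows of AKR1C1 and AKR1C2 share the match TGAGCTGGC on the minus strand, which begins 41 and 45 bases before the start, and neither AKR1C3 window holds one. TGANNNNGC occurs in 35.2% of 35116 such windows, so that a match is common, and elements farther upstream were not searched.

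The coding sequences are so alike that counting can move fragments between these genes. Of 972 coding bases, AKR1C1 and AKR1C2 differed at 19 (98.0% identity), with a longest identical run of 189 bases, and AKR1C3 differed from AKR1C1 at 83 and from AKR1C2 at 87. The coding bases 103 to 162, from GENCODE 29, are printed as the stretch of 60 bases that best separates AKR1C1 from AKR1C2. Capitals mark positions at which the 3 genes are not all the same.
AKR1C1: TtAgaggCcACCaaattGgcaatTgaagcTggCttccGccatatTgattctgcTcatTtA
AKR1C2: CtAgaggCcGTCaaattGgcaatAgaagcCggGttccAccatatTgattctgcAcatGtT
AKR1C3: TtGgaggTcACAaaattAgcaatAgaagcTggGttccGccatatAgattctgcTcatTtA

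In this stretch AKR1C1 and AKR1C2 differed at 10 bases, AKR1C2 and AKR1C3 at 13, and AKR1C1 and AKR1C3 at 7. Of all coding stretches of 100 bases, 21.0% of those in AKR1C1, 26.7% in AKR1C2 and 9.7% in AKR1C3 also occur in a transcript of another gene. This held for 0.0% in the coding sequences of GPX2, TXNRD1, GCLM, GCLC, NQO1 and AKR1B1. Over a whole transcript of each gene, the shares were 17.4% for AKR1C1, 32.9% for AKR1C2, 5.0% for AKR1C3 and 13.8% for NQO1. The sources used here do not say how fragments with several matches were counted, so the split of the rise between AKR1C1 and AKR1C2 is uncertain. AKR1C4, the fourth gene of the cluster, stayed between 0.04 and 0.22 FPKM.

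Within the summed level of AKR1C1, AKR1C2 and AKR1C3, the balance moved away from AKR1C3. AKR1C3 made up 54.9% and 54.4% of the sum in the controls and 47.6% and 49.2% with GMI. AKR1C1 made up 9.56% and 8.95% in the controls and 12.4% and 12.3% with GMI, and AKR1C2 35.6% and 36.7% in the controls and 40% and 38.5% with GMI. The groups did not overlap for any of the 3 shares. In FPKM, both GMI libraries lay above both controls in 29.8% of all tested genes and below both in 30.4%. The 3 shares make up the whole sum of each library and so are not separate results. AKR1C3 itself overlapped between the groups in FPKM. The mean shifts were 3.11 percentage points for AKR1C1, 3.10 for AKR1C2 and -6.21 for AKR1C3, given as a description with no test. Summed with AKR1C4 to 1 feature, the genes had 669 and 629 FPKM in the controls and 707 and 736 FPKM with GMI, and this sum did not pass (log2 fold change 0.15, 95% interval 0.0037 to 0.30, limma adjusted p = 0.147).

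**Figure D2:**
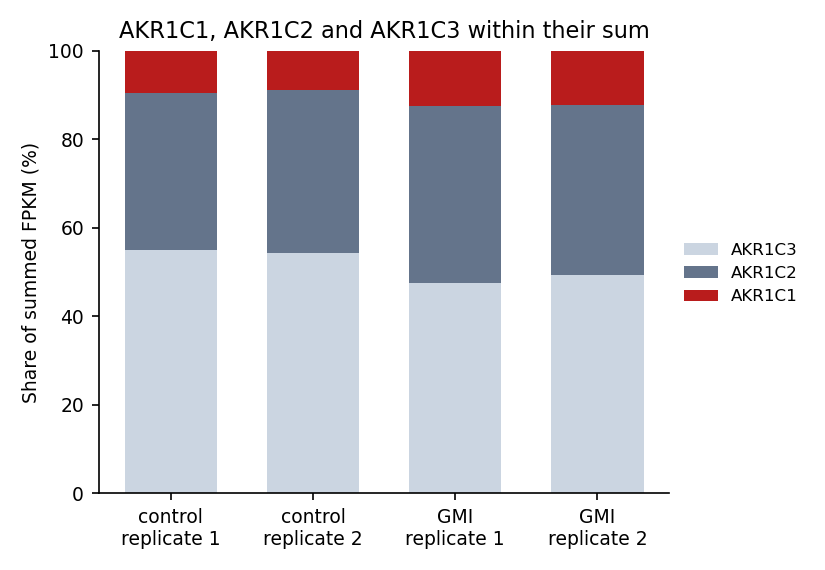
Share of AKR1C1, AKR1C2 and AKR1C3 in their summed FPKM, in percent, 1 bar per library. AKR1C3 takes 54.4% to 54.9% of the bar in the controls and 47.6% to 49.2% with GMI.

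The AKR1B genes did not pass. AKR1B1 (ENSG00000085662) had 2133 and 1927 FPKM in the controls and 2002 and 1937 FPKM with GMI. Its controls were farther apart than the group means of 2029.6 ± 146 and 1969.7 ± 46.2 FPKM, and the log2 fold change was -0.04 (95% interval -0.21 to 0.13, limma adjusted p = 0.741). AKR1B10 (ENSG00000198074) had 639 and 618 FPKM in the controls and 547 and 546 FPKM with GMI. Both GMI libraries lay below both controls, with a log2 fold change of -0.20 (SE 0.0561, 95% interval -0.33 to -0.07) between means of 628 ± 15.0 and 546 ± 0.523 FPKM. The adjusted p of AKR1B10 was 0.0573 with limma, just outside the threshold. It was inside in 3 of 14 alternative settings. These were a minimum mean of 5 FPKM (0.0401), libraries scaled to the same sum (0.0295) and quantile normalization (0.0209). It was outside with the same median (0.149), without a mean-variance trend (0.121), with a replicate block (0.116) and with no filter (0.216). AKR1B15, its neighbour with 92.7% coding identity, also had lower values with GMI, at 6.71 and 5.85 FPKM against 7.69 and 8.08 FPKM (log2 fold change -0.29, limma adjusted p = 0.0659). The coding sequence of AKR1B10 shares 3.5% of its stretches of 100 bases with other genes, AKR1B15 among them.

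NQO1 (ENSG00000181019), which reduces quinones to hydroquinones and is a standard readout of NRF2 activity, did not pass either. It measured 342 and 336 FPKM in the controls and 304 and 299 FPKM with GMI. The groups did not overlap, with means of 339 ± 3.78 and 302 ± 3.56 FPKM, a log2 fold change of -0.17 (95% interval -0.30 to -0.04) and a limma adjusted p of 0.0830. NQO1 was called lower in 2 of 14 alternative settings, with libraries scaled to the same sum (adjusted p = 0.0478) or quantile normalized (0.0309). It was not called with libraries scaled to the same median (0.196) or without a mean-variance trend (0.17). In GENCODE 29, 17.7% of its exon bases also belong to another gene, and without a stated strand setting the reads of both cannot be told apart.

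GPX2 was the gene that fell. This selenoprotein of epithelial cells (ENSG00000176153) reduces hydroperoxides with glutathione. It had 20.15 and 18.3 FPKM in the controls and 12.5 and 9.97 FPKM with GMI. Both GMI libraries were below both controls, and they were also farther apart from each other than the controls were. Means were 19.2 ± 1.315 FPKM without and 11.2 ± 1.80 FPKM with GMI, and the log2 fold change was -0.73 (SE 0.109, 95% interval -0.99 to -0.47, limma adjusted p = 0.00827). With 1499 exon bases, its values stand for approximately 621, 660, 410 and 312 fragments in the order of the libraries above, the fewest of the 10 genes, and counting error alone is 5.66% at the lowest. The call was lost on omitting the first control (adjusted p = 0.120), the second control (0.0983) or the filter (0.122), where the log2 fold change was -0.66, -0.80 and -0.73.

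TXNRD1, the cytosolic selenoprotein that reduces thioredoxin with NADPH, measured 176 and 183 FPKM in the controls and 186 and 193 FPKM with GMI. The groups were adjacent without overlap, and the log2 fold change was 0.08 (95% interval -0.06 to 0.21, limma adjusted p = 0.397). GCLC and GCLM encode the catalytic and the modifier subunit of glutamate-cysteine ligase, which catalyses the rate-limiting step of glutathione synthesis. GCLC had 11.5 and 12.3 FPKM in the controls and 13.4 and 13.5 FPKM with GMI, all GMI values being higher (log2 fold change 0.16, 95% interval 0.0019 to 0.32, limma adjusted p = 0.151). GCLM had 14.7 and 15.7 FPKM in the controls and 14.9 and 15.4 FPKM with GMI, so that both GMI values lay between the controls (log2 fold change -0.01, 95% interval -0.17 to 0.15, adjusted p = 0.963). The ratio of GCLC to GCLM was 0.784 in each control and 0.902 and 0.876 with GMI. None of the 7 genes that missed the threshold is shown by this to have stayed the same, but their intervals leave out changes beyond -0.33 and 0.32 on the log2 scale.

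**Figure D3:**
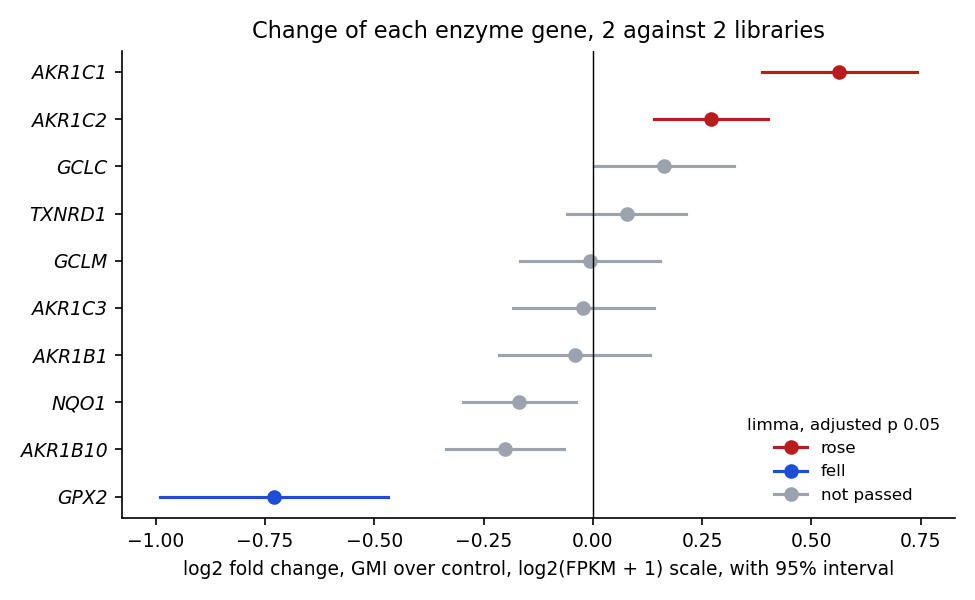
Log2 fold change of each gene, GMI over control, as a point with its 95% limma interval (n = 2 against 2 libraries), coloured by the call at an adjusted p of 0.05. AKR1C1 at 0.56 and AKR1C2 at 0.27 rose, GPX2 at -0.73 fell, and the other 7 lie between -0.20 and 0.16.

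Letter matches to the antioxidant response element were looked for close to the starts. The strict form TGACNNNGC was searched on both strands of the 250 upstream bases, and it is contained in the loose form TGANNNNGC. RefSeq windows were found for 9 of the 10 genes, all but AKR1B10. The strict form was present in GPX2 (TGACTTAGC, minus strand, beginning 122 bases before the start), in GCLM (TGACTAAGC, minus strand, 34 bases before) and in both windows of TXNRD1 (TGACTTCGC, plus strand, 99 bases before, and TGACAAAGC, minus strand, 102 bases before). It occurs in 10.9% of all 35116 windows. The GPX2 and GCLM windows are shown as examples with a strict match, and the part of such matches in the changes was not tested. These windows lie at chr14:64942746-64942995 and chr1:93909431-93909680 on GRCh38.p14, both on the minus strand, with the matches in capitals.
GPX2: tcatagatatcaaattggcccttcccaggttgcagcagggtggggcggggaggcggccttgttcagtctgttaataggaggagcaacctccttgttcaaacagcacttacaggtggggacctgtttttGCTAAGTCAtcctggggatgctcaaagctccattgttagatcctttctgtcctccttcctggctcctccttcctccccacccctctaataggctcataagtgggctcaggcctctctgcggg
GCLM: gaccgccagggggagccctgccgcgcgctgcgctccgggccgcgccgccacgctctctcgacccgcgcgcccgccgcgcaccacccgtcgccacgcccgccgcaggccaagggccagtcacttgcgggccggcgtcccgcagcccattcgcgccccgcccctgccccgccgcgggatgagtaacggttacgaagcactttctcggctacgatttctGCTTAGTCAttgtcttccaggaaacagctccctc

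NQO1 held a loose match, TGAGGCTGC, 119 bases before its start, and the windows of AKR1B1 and GCLC held neither form. The absence of these letters from a window says nothing of elements elsewhere.

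The levels of the regulators were as follows. NFE2L2 had 15.3 and 16.3 FPKM in the controls and 18.1 and 18.6 FPKM with GMI, both above the controls, and did not pass (log2 fold change 0.20, limma adjusted p = 0.0899). KEAP1 did not pass either (-0.05, adjusted p = 0.631), with 25.0 and 23.4 FPKM in the controls and 23.6 and 23.0 FPKM with GMI. Of 13 regulator genes 3 rose and 1 fell, 30.8% against 15.4% of all tested genes. The small MAF genes MAFG and MAFF, whose proteins pair with NRF2, rose from 14.7 ± 0.219 to 21.9 ± 0.163 FPKM (0.55, adjusted p = 0.00312) and from 1.93 ± 0.375 to 4.54 ± 0.106 FPKM (0.93, adjusted p = 0.00369). SQSTM1, an autophagy receptor that binds KEAP1, rose from 298 ± 3.51 to 399 ± 1.94 FPKM (0.42, adjusted p = 0.00491), and NFE2L3, a relative of NRF2, fell from 5.80 ± 0.0919 to 2.91 ± 0.0566 FPKM (-0.80, adjusted p = 0.00193). MAFG, SQSTM1 and NFE2L3 lost their calls when control replicate 1 was left out (0.0728, 0.0854 and 0.0577) or control replicate 2 was (0.0868, 0.0882 and 0.0660), and MAFF when control replicate 2 was left out (0.0653). The log2 fold changes in those fits were 0.56 and 0.54 for MAFG, 0.41 and 0.43 for SQSTM1, -0.81 and -0.78 for NFE2L3 and 0.795 for MAFF.

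The wider NRF2 pathway, taken as 11 lists of genes beside the 10 enzymes, was also split in direction. These lists include the 13 regulators above, so their 3 rises and 1 fall are counted here again. Of the 114 tested genes in the lists 15 rose and 8 fell, 20.2% against the 15.4% of all tested genes. The median over the 114 was -0.01 on the log2 scale. Without control replicate 1 limma called 2 of the 114 genes, ALDH1A1 and MAFF, and without control replicate 2 only ALDH1A1. The other called genes then had adjusted p-values of 0.0530 to 0.273 and 0.0560 to 0.257. Of the 5 other aldo-keto reductase genes above the filter, limma called 0 in either direction, with 2 at an unadjusted p under 0.05. Around glutathione, 3 of 14 metabolic genes rose, namely GLRX, glutaredoxin (log2 fold change 0.51), HAGH, a glyoxalase (0.52), and CHAC1, which breaks glutathione down (0.38). The transferase genes GSTO1 (0.64) and MGST3 (0.34) rose as 2 of 9 tested. By list, 21.4% of the glutathione genes and 22.2% of the transferase genes were called, against 15.4% of all tested genes. CHAC1 and MGST3 each passed in 10 of 14 alternative settings.

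Next to GPX2, another selenoprotein peroxidase, GPX1, fell from 212 ± 14.6 to 165 ± 2.23 FPKM (log2 fold change -0.35, limma adjusted p = 0.0167), and SOD2, the mitochondrial superoxide dismutase, rose (0.34), as 2 of 7 tested genes of this list. GPX4, a selenoprotein peroxidase of lipid hydroperoxides in the same list, had 106 and 94.2 FPKM in the controls and 113 and 117 FPKM with GMI, both higher, and did not pass (log2 fold change 0.20, limma adjusted p = 0.106). GPX1 lost its call without control replicate 1 (0.161), control replicate 2 (0.0954) or GMI replicate 2 (0.0664). Of 6 tested selenoprotein synthesis factors limma called 0, with 1 at an unadjusted p under 0.05. Next to TXNRD1, PRDX5, a peroxiredoxin, rose (0.46) and 11 of 12 other thioredoxin genes did not pass. NADPH is the cofactor of the reductases. In a list of 9 NADPH-forming enzymes and pentose phosphate genes, IDH1 (0.32) and ME1 (-0.30), whose enzymes form NADPH, rose and fell. PGLS (0.25), a lactonase of the pentose phosphate pathway, rose. IDH1, ME1 and PGLS were not called by limma without a mean-variance trend (adjusted p = 0.0518, 0.0516 and 0.0772). Each of these 3 passed in 9 of 14 alternatives. Next to NQO1 and the reductases, 3 of 19 detoxification and efflux genes fell and 0 rose by limma, with 7 at an unadjusted p under 0.05, all lower. The 15.8% called is near the 15.4% of all tested genes, of which 32.2% had an unadjusted p under 0.05. The genes called were ALDH3A1 (-0.94), ALDH1A1 (-0.77) and the efflux pump ABCC3 (-0.39). ABCC3 was not called by limma without a mean-variance trend (adjusted p = 0.0624) and passed in 9 of 14 alternatives. Heme oxygenase HMOX1 (0.40) and biliverdin reductase BLVRA (0.34) rose as 2 of 7. Of 13 other listed NRF2 targets PANX2 (0.59) rose while TRIM16L (-0.42) and TRIM16 (-0.25) fell. Beside 15.4% of all tested genes, the shares called were 28.6% of the peroxidase list, 8.33% of the thioredoxin list and 33.3% of the NADPH list. They were 28.6% of the heme and ferritin list and 23.1% of the other NRF2 targets. No list was tested as a set. SOD2 and BLVRA each passed in 10 of 14 alternatives. TRIM16 passed in 6 of 14 alternatives. Its adjusted p was 0.0885 and 0.0813 when GMI replicate 1 and GMI replicate 2 were left out, 0.0704 with a common median, 0.0777 without a trend and 0.0605 with the replicate number as a block.

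**Figure D4:**
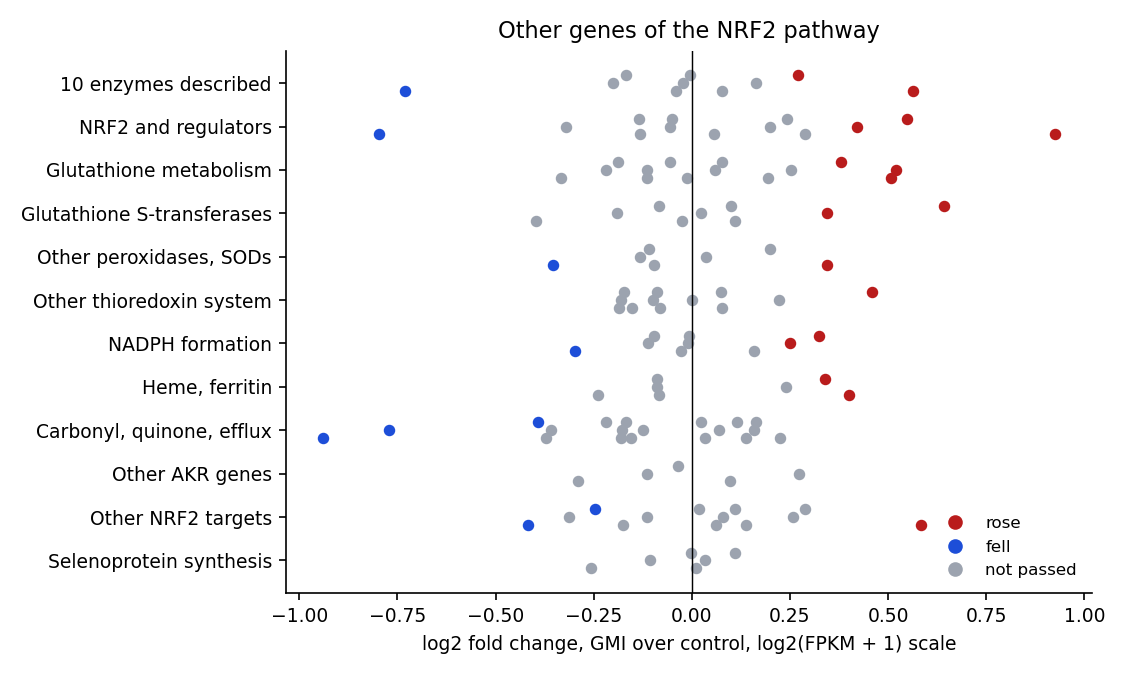
Log2 fold change, GMI over control, of every tested gene in the 10 enzymes and in 11 other lists of the NRF2 pathway, 1 point per gene, coloured by the call at an adjusted p of 0.05. Calls in both directions occur, with 15 upward and 8 downward among the 114 genes of the other lists.

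The genes whose profile over the 4 libraries lay nearest to AKR1C1 were BRI3, ETHE1, a mitochondrial sulfur dioxygenase, and ALKBH7, at distances of 0.0358, 0.0377 and 0.0399. Distance is Euclidean, on log2(FPKM + 1) centred on each gene's mean, among genes with a mean of at least 5 FPKM. ETHE1 rose from 41.8 ± 2.79 to 62.2 ± 0.735 FPKM (log2 fold change 0.56, limma adjusted p = 0.00364). Nearest to GPX2 were GEMIN4, GAL3ST1 and CTPS1, at distances of 0.125, 0.128 and 0.140, and CTPS1, a CTP synthase, fell from 10.9 ± 0.502 to 5.63 ± 0.665 FPKM (-0.85, adjusted p = 0.00271). Without control replicate 1 and control replicate 2 the adjusted p was 0.0555 and 0.0861 for ETHE1 and 0.0728 and 0.0690 for CTPS1. With 4 libraries in 2 groups, a small distance says little more than that the size of the change was alike.

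**Figure D5:**
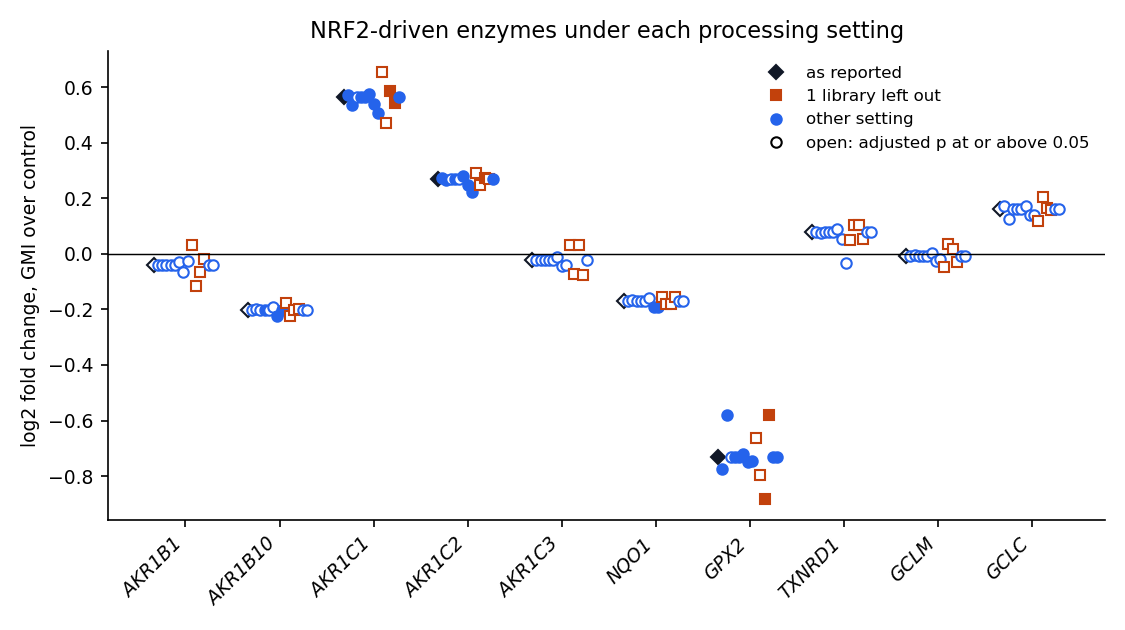
Log2 fold change of each gene as reported and under each alternative setting, with filled symbols for an adjusted p below 0.05 and open symbols otherwise. GPX2 stays between -0.88 and -0.58, AKR1C1 between 0.47 and 0.66 and AKR1C2 between 0.22 and 0.29, while AKR1B1, AKR1C3, TXNRD1 and GCLM lie on both sides of 0.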

How the data were processed

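RNA from 2 control and 2 GMI-treated samples of A549 cells was isolated with Trizol and made into NEBNext Ultra libraries, per the labels' protocols. The tools named in the submitters' processing notes are HISAT2 2.0.1, HTSeq 0.6.1, cutadapt 1.9.1 and bcl2fastq 2.17.1.14, with GRCh37 as the genome build. The authors deposited FPKM values for each library. Gene lengths, annotation release and strand setting: not given in the sources used here.

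Genes with at least 1 FPKM in at least 2 of the 4 libraries were tested with limma 3.58.1 in R 4.3.3 on log2(FPKM + 1), with a mean-variance trend, no covariates and Benjamini-Hochberg adjustment over 11598 genes. Each gene had 2 residual degrees of freedom, to which the trend prior added 4.69. The procedure was tested on simulated data with independent noise, which cannot show whether the calls in these libraries hold. Denominators were read from genes up to 200 nt long and below 20 FPKM, where 95.8% to 96.8% of values were whole multiples within 0.006 FPKM, against 2.8% to 3.2% by chance. Approximate fragments use GENCODE 29 exon lengths and cover counting error only. The chi-square per degree of freedom between libraries of a group was 4.88 and 9.67, so the libraries of a pair differed by more than sampling noise.

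The 10 genes and the 20 gene lists were chosen with earlier results of these data known. Besides the 10 genes, the text names NFE2L2, KEAP1 and SQSTM1, up to 3 called genes of each pathway list with the smallest adjusted p, and the 3 nearest profiles of AKR1C1 and of GPX2. AKR1B15, AKR1C4, GPX4 and the cell markers are named outside this rule. Python 3.11.15, pandas 2.3.3 and biopython 1.88 were used.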

Additional observations from a re-analysis of the deposited data

How the results depend on the processing

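Under 14 alternatives, AKR1C1 kept a positive and GPX2 a negative log2 fold change in each one that could give it, and AKR1C1 passed the threshold in 10 of 13, AKR1C2 in 8 of 13 and GPX2 in 11 of 14. Among the 10 genes, 5 passed with libraries scaled to the same summed FPKM, 5 with quantile normalization, 1 of 7 features with the AKR1C genes summed and 0 by limma without a filter (6 at an unadjusted p under 0.05), where 1 of 26758 genes passed in all (4500 at an unadjusted p under 0.05). Leaving out 1 library gave 0 to 3 of the 10 genes and 45 to 1369 of all tested genes, against 3 and 1789. It moved the AKR1C share shifts to 2.80 to 3.41 percentage points for AKR1C1, 2.33 to 3.88 for AKR1C2 and -7.05 to -5.37 for AKR1C3.

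Signs turned only for genes that had missed the threshold. Without 1 library the log2 fold change of AKR1B1 ran from -0.115 to 0.0316, of AKR1C3 from -0.0761 to 0.0335 and of GCLM from -0.0486 to 0.037. TXNRD1 was at -0.0319 with quantile normalization and GCLM at 0.00464 with a common median. The cause was not tested.

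With the replicate number as a block, 2000 of all genes and 3 of the 10 enzymes passed. Same-numbered libraries did not deviate together (correlation -0.044 across genes), so the numbers were not taken as pairs. Precision is limited by 2 libraries a group and, for GPX2, by its few fragments.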
